A study of Mus musculus with 70 samples.

Results

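The 10 genes described here encode transcription factors that pattern the embryonic midbrain and hindbrain: Tal1, Gata2, Gata3, Tfap2b, Lmx1b, Pax3, Pax7, En1, En2 and Otx2. They were chosen by name, with earlier results of these data known, and all 10 were found among the 34677 genes in the gene-level table. Levels are given as TPM, transcript abundance corrected for transcript length and scaled to the same total in every library, in 70 libraries of 24 groups. The main question was how the level of each factor in embryonic midbrain (M, 2 libraries) and hindbrain (H, 3 libraries) compared with that in 9 groups of adult tissue. These were the ventral tegmental area of the midbrain (VTA, 3 libraries), 3 hindbrain nuclei and 5 parts of the cerebellum. The hindbrain nuclei were the parabrachial nucleus (PB, 3 libraries), the nucleus of the solitary tract (NTS, 4 libraries) and the dorsal vagal complex (DVC, 3 libraries). The cerebellar groups were the cerebellar nuclei (CBN, 3 libraries), central lobule (CENT2, 4), culmen (CUL4-5, 4), flocculus (FL, 4) and uvula (UVU, 3). Embryonic hypothalamus (THy-PHy, 3 libraries), a single embryonic forebrain library (F), adult forebrain and hypothalamic regions, and 2 mouse embryonic stem cell (mESC) clones served as further points of reference.

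All mice were C57BL/6NTac by the study's methods, the mESC clones are given as C57BL/6, and no treatment or allele is named in the labels. Adults were males of postnatal day 56 and embryos were of stage E14.5. Tissue was punched from frozen sections, so each library holds every cell type in the punch. An adult library pooled punches of several mice, except for 1 library of the nucleus accumbens (ACB) from a single mouse, and an embryonic library pooled embryos, so the spread between libraries is that between pools. Adult and embryonic tissue was collected and prepared as separate sets, so that stage and preparation cannot be told apart. A punch with fewer cells of a type and a punch with less RNA per cell likewise cannot be told apart.

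The neural tube is divided along its length by transcription factors whose domains meet at set borders. Otx2 marks the forebrain and midbrain and ends at the isthmus, the junction with the hindbrain, while En1 and En2, homeodomain repressors, straddle that junction. Pax3 and Pax7 are paired-homeodomain factors of the dorsal neural tube, Tfap2b is an AP-2 factor of dorsal and cerebellar inhibitory neuron precursors, and Lmx1b is a LIM-homeodomain factor needed by midbrain dopamine and hindbrain serotonin neurons. The bHLH factor Tal1 and the zinc-finger factors Gata2 and Gata3 select the GABAergic fate in midbrain and ventral hindbrain precursors, and the same genes act in blood formation. Otx2 is also made by the epithelium of the choroid plexus, the tissue that secretes cerebrospinal fluid.

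The promoters of the Tal1-Gata group and of Otx2 are shown because Tal1, Gata2 and Gata3 had their highest mean in the same group and Otx2 differed between punches of 1 region. Sequences are from RefSeq on GRCm38.p6 and run from 250 bases before an annotated start to 50 after it, 5′ to 3′ on the gene's strand. Windows were found for 8 of the 10 genes, 13 in all, and none was found for Pax3 or En2. Capitals mark GATAA, the core bound by GATA factors, and CANNTG, the E-box bound by bHLH factors, each on either strand.
Tal1, chr4:115056176-115056475, plus strand: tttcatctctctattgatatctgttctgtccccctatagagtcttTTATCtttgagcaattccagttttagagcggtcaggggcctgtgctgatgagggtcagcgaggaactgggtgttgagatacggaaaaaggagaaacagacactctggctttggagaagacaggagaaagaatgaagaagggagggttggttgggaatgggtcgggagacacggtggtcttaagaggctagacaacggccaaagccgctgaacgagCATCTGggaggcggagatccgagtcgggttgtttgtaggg
Gata2, chr6:88193641-88193940, plus strand: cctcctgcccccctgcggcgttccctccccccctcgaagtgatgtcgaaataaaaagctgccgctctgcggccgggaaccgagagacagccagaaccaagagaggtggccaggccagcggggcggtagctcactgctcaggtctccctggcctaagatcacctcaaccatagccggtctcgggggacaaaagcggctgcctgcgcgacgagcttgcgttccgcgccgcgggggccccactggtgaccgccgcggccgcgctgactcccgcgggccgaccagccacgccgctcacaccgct
Gata3, chr2:9878551-9878850, minus strand: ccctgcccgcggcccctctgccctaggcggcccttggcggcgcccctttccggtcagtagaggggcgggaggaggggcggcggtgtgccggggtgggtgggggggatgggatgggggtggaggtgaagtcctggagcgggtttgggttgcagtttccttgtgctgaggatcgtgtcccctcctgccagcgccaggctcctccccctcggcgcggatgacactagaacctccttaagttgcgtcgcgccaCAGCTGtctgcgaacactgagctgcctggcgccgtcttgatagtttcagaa
The Tal1 window shown held 1 GATAA, read as TTATC on the strand shown, and 1 E-box. The Gata3 window held 1 E-box and no GATAA, and the Gata2 window shown held neither. A further Gata2 window, at chr6:88198414-88198713 and not shown, held 1 E-box and no GATAA. A further Tal1 window, at chr4:115057561-115057860 and not shown, held neither. Of all 32851 windows of this length, 25.4% held GATAA and 72.3% held CANNTG, so that these matches are descriptions of the letters only.

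In the windows of Otx2, capitals mark TAATTA, a core of homeodomain binding, and TAATCC, the core preferred by Otx factors themselves, on either strand.
Otx2, upstream start, chr14:48667595-48667894, minus strand: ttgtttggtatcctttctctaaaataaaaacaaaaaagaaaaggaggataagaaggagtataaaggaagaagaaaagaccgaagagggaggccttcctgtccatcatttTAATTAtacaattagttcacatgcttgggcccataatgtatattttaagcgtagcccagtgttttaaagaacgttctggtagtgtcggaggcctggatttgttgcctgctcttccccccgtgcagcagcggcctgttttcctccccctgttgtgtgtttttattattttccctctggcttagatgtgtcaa
Otx2, downstream start, chr14:48665060-48665359, minus strand: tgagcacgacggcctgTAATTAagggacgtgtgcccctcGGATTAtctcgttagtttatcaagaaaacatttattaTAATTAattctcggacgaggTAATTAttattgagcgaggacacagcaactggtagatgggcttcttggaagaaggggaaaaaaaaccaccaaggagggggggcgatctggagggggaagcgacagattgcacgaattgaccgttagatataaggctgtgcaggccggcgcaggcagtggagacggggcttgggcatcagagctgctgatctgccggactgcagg
The upstream window held 1 TAATTA, and the downstream window held 3 TAATTA and 1 TAATCC, read as GGATTA on the strand shown. The Otx2 windows not shown, at chr14:48667459-48667758 and chr14:48662685-48662984, held neither. Of all windows, 5.29% held TAATTA and 7.06% held TAATCC. On GRCm38 in the GENCODE annotation, the genes lie at chr4:115056426-115071755 (Tal1), chr6:88193891-88207032 (Gata2), chr2:9857078-9890034 (Gata3), chr14:48657677-48673819 (Otx2) and chr1:120602418-120607992 (En1). The others lie at chr5:28165694-28172166 (En2), chr1:78101267-78197134 (Pax3), chr4:139737062-139833528 (Pax7), chr1:19208914-19238576 (Tfap2b) and chr2:33560965-33640511 (Lmx1b). Pax3 and Pax7, En1 and En2, and Gata2 and Gata3 are paralogs, and reads from antisense transcripts that overlap a gene can be told from its own only if the counting used strand, which is not given in the sources used here.

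Libraries held 9025677 to 22079228 estimated counts matched to genes (median 16922909), and mitochondrial genes took 2.69% to 39.6% of TPM. A total of 3 libraries stood apart. VTA library 1 had the highest mitochondrial share (39.6%), which lowers the TPM of every other gene in it, and H library 1 had the lowest depth (9025677 counts) and a mitochondrial share of 22.6%. NTS library 1 held markers of choroid plexus, among them Ttr at 10330 TPM against 2.47 to 10.7 in the other NTS libraries. Other libraries with markers of other tissue or cell types are described below and were not in this set. Among them were CBN library 1, with choroid plexus markers, and CENT2 library 1, with serotonin neuron genes. The labels were checked against markers. The dopamine transporter gene Slc6a3 was at 173 to 556 TPM in VTA and at most 3.67 in M, H, hindbrain nuclei and cerebellum. The granule cell gene Gabra6 was at 28.7 to 749 TPM in the cerebellar groups and at most 3.40 in the other groups compared. The hindbrain gene Hoxb3 was at 62.0 to 93.7 TPM in H and at most 1.00 in M. Its neighbour Hoxb5, a gene of the caudal hindbrain, was at 120 and 147 TPM in H libraries 1 and 2 and at 0.471 in library 3. Hoxb5 was chosen for mention after its values were seen.

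All 10 factors were higher in M and H than in the 9 adult groups by the edgeR quasi-likelihood test on counts, which averages groups with equal weight on a log scale. A gene is called where its adjusted p is under 0.05 and its log2 fold change exceeds 1 in size. In this comparison 19% of the 19980 genes tested were called higher and 18.8% lower, with a median log2 fold change over all genes of 0.04. The log2 fold changes of the 10 ran from 1.05 (En2) to 6.92 (Pax7), each with the standard error given below. Without the 3 libraries that stood apart, all 10 were again called higher. The count was 9 of 10, with En2 lost, under all 3 forms of limma on TPM, with equal weight for each library, and without H replicate 2 or M replicate 2. The individual libraries separated less often than the averages did. Tfap2b and Pax3 had no overlap between the 5 embryonic and 31 adult libraries (all 5 higher), a pattern seen in 9.28% of genes, and the other 8 overlapped. With M alone, both libraries lay above all 31 adult libraries for 7 of 10 factors, the exceptions being Lmx1b, En1 and En2. The same held for 20.8% of genes.

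**Figure D1:**
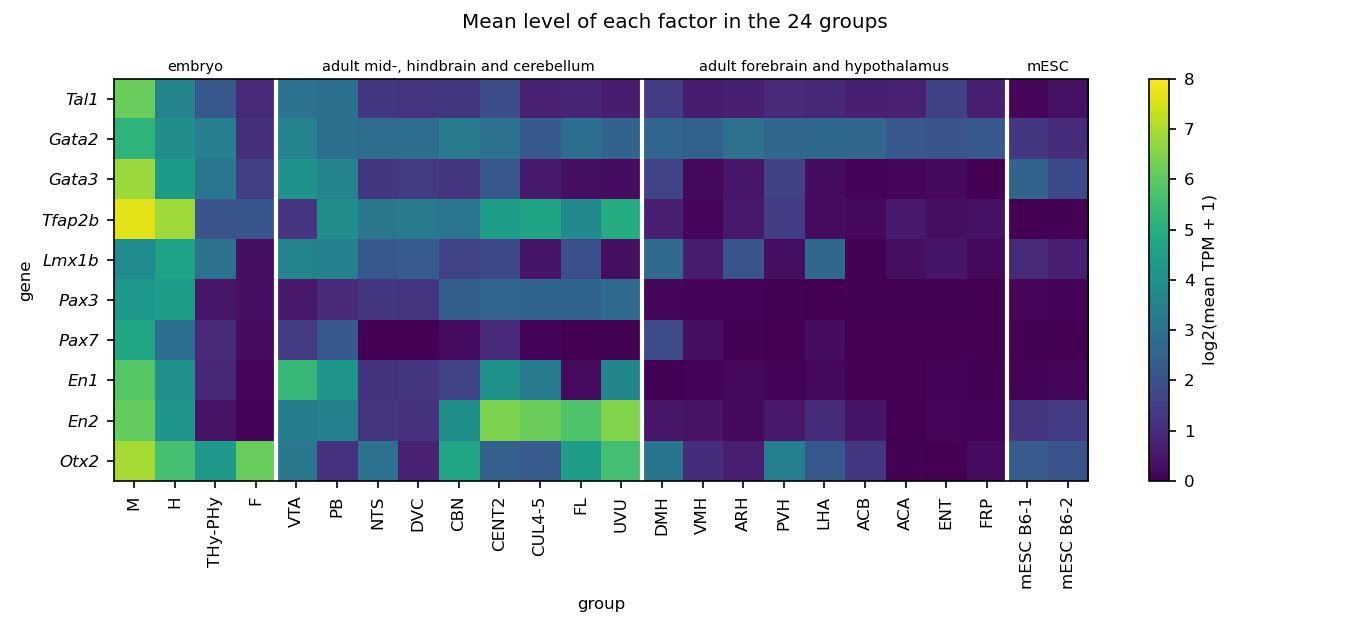
Heat map of the mean level of each factor, as log2(mean TPM + 1), with the 10 genes as rows and the 24 groups as columns. M holds the highest mean of 7 of the 10 factors, H that of Lmx1b and Pax3, and UVU that of En2.

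Tal1, Gata3 and Gata2, the factors of GABAergic fate, had their highest mean in M. Tal1 was at 73.9 and 69.0 TPM in M, at 1.45, 19.3 and 11.9 in H, and at 0.408 to 9.92 in the 31 adult libraries. The 2 M libraries stood above every other library of the series, whereas H library 1 fell within the adult range. The log2 fold change of M and H over the adult groups was 4.16 (SE 0.19, edgeR adjusted p = 6.21e-26). Gata3, which acts after Gata2 in the same cells, was at 123 and 94.9 TPM in M, at 12.4, 33.6 and 13.0 in H, and at 0 to 21.6 in adult tissue (log2 fold change 4.98, SE 0.21, edgeR adjusted p = 2.21e-31). Its H libraries lay within the range of adult VTA (7.12, 18.98 and 21.6 TPM) or above it. Gata2 differed less, with 36.2 and 35.1 TPM in M, 17.3, 14.49 and 11.8 in H, and 2.48 to 16.6 in adult tissue (log2 fold change 1.98, SE 0.13, edgeR adjusted p = 2.49e-19). Gata2 was at 1 TPM or more on average in 24 of 24 groups, and M held 21.2% of the sum of its 24 group means, against 60.2% for Tal1 and 58.5% for Gata3.

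In the adult groups compared, VTA had the highest mean of all 3 genes, and PB came next for Tal1 and Gata3. Gata2 was ordered differently, with means of 10.9 TPM in VTA, 8.84 in CBN and 7.16 in CENT2, and its levels in PB (6.04 to 7.81) overlapped with those in NTS and DVC (5.27 to 7.29). Tal1 was at 2.61, 9.92 and 9.32 TPM in VTA and at 7.60, 4.98 and 7.52 in PB, which overlapped. It was at 1.31 to 1.76 in NTS and 1.02 to 1.96 in DVC, below every PB library. Gata3 was at 15.7, 6.95 and 9.88 TPM in PB and at 1.15 to 1.73 in NTS and 1.37 to 1.73 in DVC. Within the cerebellum Tal1 and Gata3 were at most 2.07 and 2.17 TPM outside CENT2 library 1. That library held 6.49 TPM of Tal1, 14.0 of Gata2 and 10.3 of Gata3, against 0.688 to 2.07, 2.48 to 8.36 and 0.109 to 2.17 in the other CENT2 libraries. It also held the serotonin neuron genes Slc6a4 and Tph2 at 78.4 and 146 TPM, and library 2 held them at 46.9 and 65.0, against at most 1.70 and 3.27 in libraries 3 and 4. The part of cells from outside the lobule in these values was not tested.

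Tal1 and the Gata genes are also active in red cell precursors. The summed level of 10 red cell markers was 7600 to 12602 TPM in M, 5303 to 10619 in H and 406 to 6891 over all adult regions. It was 6317 to 10911 in THy-PHy, where Tal1 was at 2.92 to 4.01 TPM, and 5384 to 6891 in FL, where Tal1 was at 0.628 to 1.04. All 10 markers were detected in every M and H library, and 6 to 10 in the adult libraries. The part of blood cells in the levels of M and H was not tested further.

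Tfap2b and Pax3, both genes of dorsal precursors, were the 2 factors with every embryonic library above every adult one. Tfap2b was at 154 and 246 TPM in M and at 106, 171 and 65.6 in H, against 1.16 to 36.0 in adult tissue (log2 fold change 3.54, SE 0.12, edgeR adjusted p = 2.52e-32). Among the 9 adult groups compared its levels were lowest in VTA, at 1.46, 1.16 and 1.24 TPM, and highest in UVU, at 36.0, 31.4 and 21.7. Pax3 was at 13.5 and 22.8 TPM in M and at 15.2, 18.5 and 29.1 in H, against 0.0423 to 6.69 in adult tissue (log2 fold change 2.97, SE 0.11, edgeR adjusted p = 3.09e-37). M and H overlapped for both genes. The adult cerebellum kept Pax3 at 3.30 to 6.69 TPM in all 18 libraries, above all 10 libraries of PB, NTS and DVC, which held 0.677 to 1.76.

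Pax7, the paralog of Pax3 that marks the dorsal midbrain, had a different adult distribution. It was at 20.3 and 33.1 TPM in M and at 0.360, 14.45 and 4.77 in H. In adult tissue it was at 2.63, 5.24 and 3.19 TPM in PB and at 0.222, 3.92 and 0.724 in VTA. The cerebellar libraries held 0 to 0.852 TPM, except CENT2 library 1, which held 2.77, within the range of PB. The H libraries overlapped the adult ones, and 1 of them lay below every PB library. In the caudal nuclei it was nearly undetected, with 1 estimated count summed over the 4 NTS libraries and 2 over the 3 DVC libraries, against 534 in PB. The pooled rate in PB was 808 times that in NTS (exact 95% interval 144 to 31955) and 306 times that in DVC (84.3 to 2533), intervals that cover counting error only. The log2 fold change of M and H over the adult groups was 6.92 (SE 0.33, edgeR adjusted p = 7.44e-31). The fit averages logs over groups, and NTS, DVC and FL each held 1 or 2 counts, UVU 3 and CUL4-5 10. The size of this value therefore depends on how near-zero counts are treated.

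**Figure D2:**
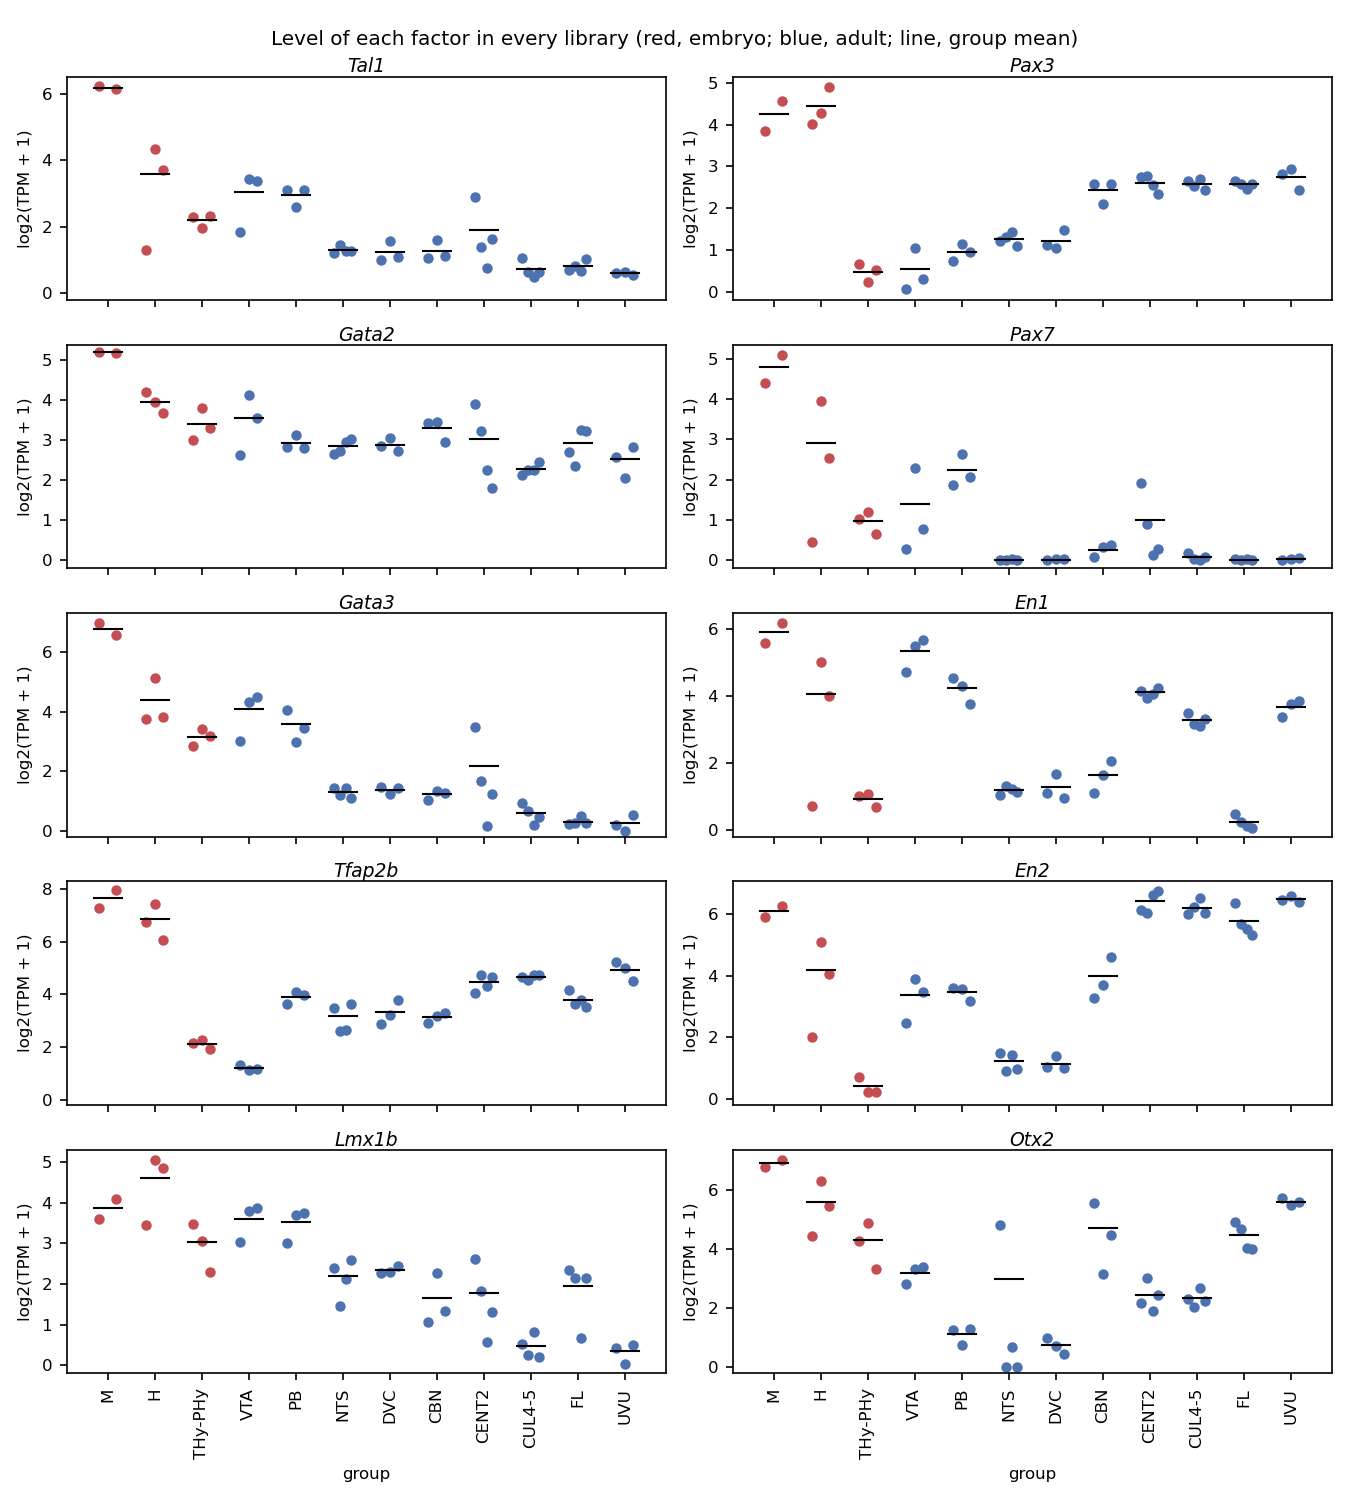
Level of each factor in every library of M, H, THy-PHy, VTA, the hindbrain nuclei and the cerebellum as log2(TPM + 1), 1 panel per gene (red, embryo; blue, adult; black line, group mean). The 2 M libraries lie close together in every panel, the 3 H libraries are spread widely for Tal1, Pax7, En1 and En2, and Otx2 in NTS has 1 library at 27.3 TPM with the others at 0 to 0.610.

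The Engrailed genes differed in where they were found in adult tissue. En1 was at 46.9 and 70.5 TPM in M and at 25.1, 43.4 and 49.2 in VTA, where it is known to be needed by dopamine neurons. These ranges overlapped, and the log2 fold change of M over VTA was −0.06 (SE 0.36, edgeR adjusted p = 0.929), an estimate whose error leaves room for a difference in either direction. By the TPM values, on which VTA library 1 is scaled down, it was 0.60 (limma adjusted p = 0.36). En1 was also at 21.9, 18.7 and 12.5 TPM in PB and at 0.943 to 2.19 in NTS and DVC. In H it was at 0.627, 31.4 and 14.9 TPM, so that library 1 lay below every NTS and DVC library. The log2 fold change of M and H over the adult groups was 2.70 (SE 0.19, edgeR adjusted p = 8.49e-21).

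En2 was the one factor whose highest mean lay in adult tissue. It was at 59.4 and 75.3 TPM in M and at 2.98, 33.3 and 15.8 in H. In the adult lobules it was at 70.1, 65.2, 98.6 and 106 TPM in CENT2, at 63.4, 73.8, 91.1 and 64.8 in CUL4-5, at 82.1, 50.6, 44.7 and 38.9 in FL and at 87.3, 95.0 and 82.9 in UVU. M lay within the range of the lobules, and CENT2, CUL4-5 and UVU overlapped each other. It was at 8.79, 12.1 and 23.6 TPM in CBN, at 8.13 to 11.3 in PB, and at 0.876 to 1.78 in NTS and DVC. Its call in M and H over the adult groups had a log2 fold change of 1.05 (SE 0.18, edgeR adjusted p = 6.09e-07). This value averages the logs of the group levels, with equal weight for each group. The mean of the group means was 42.4 TPM in M and H and 37.5 in the adult groups. With the libraries of each side pooled, which gives each library equal weight, the log2 fold change was −0.08 (edgeR adjusted p = 0.926). Without H replicate 2 it was 0.56, and without M replicate 2 it was 0.97.

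Within the lobules the Engrailed genes were not ordered alike. En1 was at 14.4 to 18.0 TPM in CENT2, at 7.53 to 10.2 in CUL4-5 and at 9.24 to 13.4 in UVU, but at 0.395, 0.168, 0.0750 and 0.0376 in FL. Every FL library lay below every library of the vermal lobules. En2 in FL had a mean of 54.1 TPM against 73.3 to 88.4 in the other lobules, and its ranges overlapped with those of CENT2 and CUL4-5.

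Lmx1b was the one factor called lower in M than in H. It was at 11.2 and 16.2 TPM in M, at 9.94, 32.4 and 28.2 in H, at 7.13, 12.9 and 13.5 in VTA and at 6.99, 12.0 and 12.5 in PB. M and VTA overlapped, and the log2 fold change was −0.35 (SE 0.43, edgeR adjusted p = 0.502). It was at 1.73 to 5.00 TPM in NTS, at 3.84 to 4.43 in DVC and at 0.0276 to 5.18 in the cerebellum. Outside midbrain and hindbrain, adult DMH (3.78 to 9.43 TPM) and LHA (4.23 to 7.84), 2 hypothalamic regions, held it at means between those of NTS and VTA. Over the adult groups the log2 fold change of M and H was 3.07 (SE 0.22, edgeR adjusted p = 4.64e-19).

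Otx2 had its highest means in M and F, followed by UVU and H. It was at 110.2 and 129 TPM in M, at 20.98, 78.1 and 43.6 in H, at 69.7 in F and at 18.6, 28.8 and 8.99 in THy-PHy. In adult tissue it was at 51.9, 44.4 and 47.1 TPM in UVU, at 29.5, 24.9, 15.4 and 15.2 in FL and at 46.9, 7.93 and 21.3 in CBN. In CENT2 and CUL4-5 it was at 2.79 to 7.12 TPM, below every library of FL, UVU and CBN. It was at 6.13, 9.10 and 9.51 TPM in VTA, at 0.676 to 1.45 in PB and at 0.365 to 0.994 in DVC. In NTS it was at 27.3, 0, 0.610 and 0 TPM, the first being the library with choroid plexus RNA. The log2 fold change of M and H over the adult groups was 3.49 (SE 0.31, edgeR adjusted p = 1.04e-14) and 4.41 without the 3 libraries that stood apart.

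Choroid plexus RNA was present in several of the other groups with Otx2. The summed level of 7 choroid plexus markers, Otx2 not among them, was 12831, 3557 and 5440 TPM in the 3 CBN libraries and 1822, 3087, 636 and 38.2 in FL. In H it was 609, 1105 and 2037 TPM and in M 31.6 and 1742. In the CBN libraries Otx2 and the markers had the same order, and the FL library with 38.2 TPM of markers held 15.2 of Otx2. UVU held 2132, 21.7 and 11.4 TPM of the markers with Otx2 at 51.9, 44.4 and 47.1. All 7 markers were at 1 TPM or more in UVU library 1, and 3 of 7 in libraries 2 and 3. M held Otx2 at 110.2 TPM in the library with 31.6 of markers. VTA held 3.47 to 6.97 TPM of the markers with Otx2 at 6.13 to 9.51. The part of choroid plexus in the Otx2 level was not tested in any group.

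**Figure D3:**
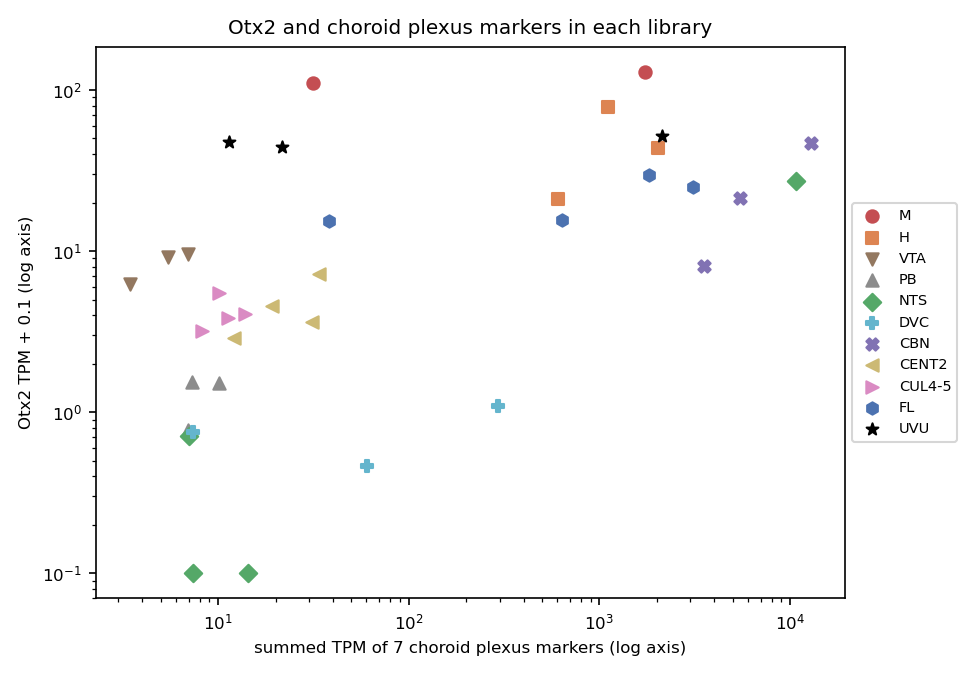
Otx2 as TPM + 0.1 against the summed TPM of 7 choroid plexus markers in each library, both on log axes, with 1 symbol per group. NTS library 1 lies with the CBN libraries at the right, while 2 UVU libraries and 1 M library hold Otx2 above 44 TPM at marker sums of at most 31.6 TPM.

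Compared region by region, M against VTA gave 8 of 10 factors called higher and none lower, where 16.9% of genes were called higher and 19.9% lower. The exceptions were En1 and Lmx1b, given above. The same 8 had both M libraries above all 3 VTA libraries, as did 44.0% of all genes, a share to read with the low TPM of VTA library 1. Tfap2b had the largest difference among factors present in VTA, with 199.7 ± 65.2 TPM (SD, n = 2) in M and 1.29 in VTA (log2 fold change 6.70, SE 0.33, edgeR adjusted p = 5.66e-24). It was followed by Pax3 (4.82), Pax7 (3.60), Otx2 (3.36), Tal1 (2.81), Gata3 (2.30), En2 (2.28) and Gata2 (1.56), with SEs of 0.26 to 0.68.

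H against PB, NTS and DVC gave 10 of 10 called higher, where 23.1% of genes were called higher and 21% lower. Only Gata2, Tfap2b and Pax3 had all 3 H libraries above all 10 adult ones, as did 20.7% of genes. Tfap2b was at 114 ± 53.4 TPM (SD, n = 3) in H, with a log2 fold change of 3.22 (SE 0.18, edgeR adjusted p = 1.32e-22). Pax3 was at 20.9 ± 7.27 TPM (SD, n = 3), with a log2 fold change of 4.15 (SE 0.17, edgeR adjusted p = 1.41e-34). H replicate 2, the library with the most Tal1, Pax7, En1 and En2, carried much of the other values. Without it the log2 fold change fell from 2.38 to 1.56 for Tal1, from 2.36 to 1.23 for En1 and from 2.84 to 1.86 for En2. Without H replicate 1 that of Gata2 went from 1.22 to 0.99, past the call's limit. For Otx2, NTS library 1 set the size, with a log2 fold change of 4.80 (SE 0.53, edgeR adjusted p = 1.3e-11) and of 7.41 without the libraries that stood apart.

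**Figure D4:**
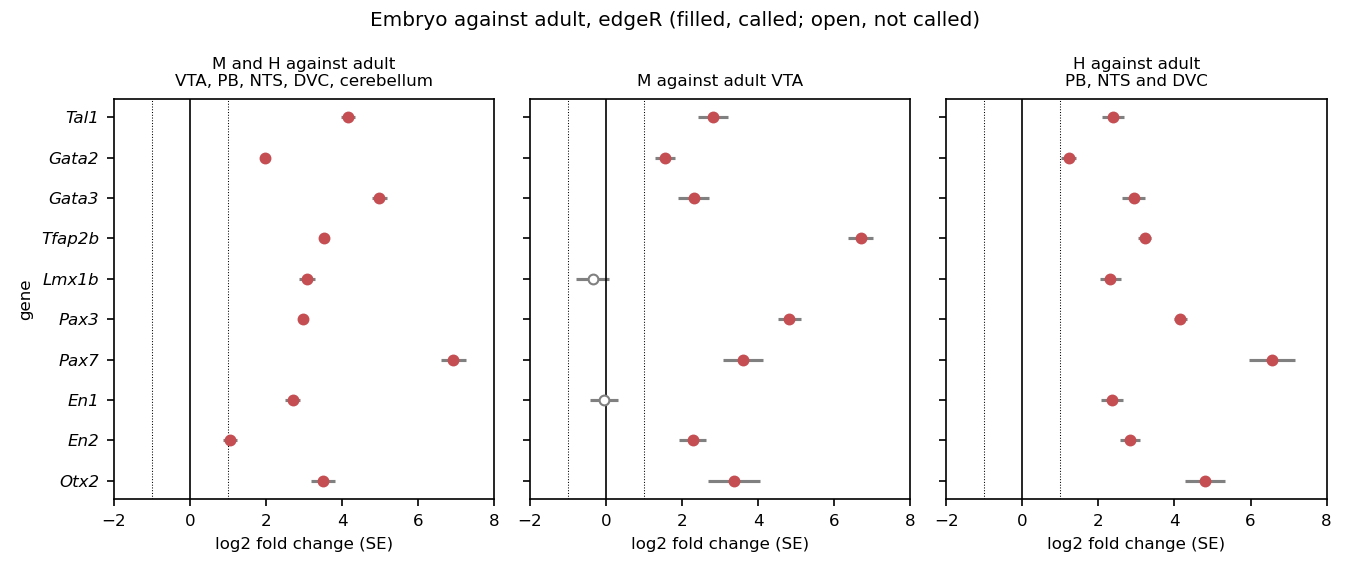
The log2 fold change of each factor in M and H over the 9 adult groups, in M over VTA and in H over PB, NTS and DVC (points, edgeR estimate; bars, 1 SE; filled, called; open, not called; dotted lines, log2 fold change of 1 in either direction). En1 and Lmx1b in M over VTA are the 2 open points, at −0.06 and −0.35.

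Markers of dividing precursors were higher in the embryo as well. Their summed level over 8 genes was 1607 and 1611 TPM in M, 705 to 1524 in H and 35.9 to 523.5 in the adult groups compared. The part of precursors in the factors' levels was not tested.

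The size of the embryonic excess differed between midbrain and hindbrain for 4 factors, by the edgeR test of the difference of the 2 differences. In that test the signed log2 fold change of embryo over adult was called larger in midbrain for 6.29% of genes and in hindbrain for 10.4%. These shares include genes that were lower in the embryo. Tfap2b had the larger excess in midbrain, by 3.48 on the log2 scale (SE 0.37, edgeR adjusted p = 1.8e-09). The reverse held for Lmx1b by −2.67 (SE 0.54, edgeR adjusted p = 0.000123), for En1 by −2.41 (SE 0.48, edgeR adjusted p = 8.28e-05) and for Pax7 by −2.97 (SE 1.09, edgeR adjusted p = 0.0254). The means in M, VTA and PB were 13.7, 11.2 and 10.5 TPM for Lmx1b and 58.7, 39.3 and 17.7 for En1, and the NTS and DVC libraries held 1.73 to 5.00 and 0.943 to 2.19. The value for Lmx1b was not called with limma on log2(TPM + 0.1) (−1.67, adjusted p = 0.13) or on log2(TPM + 0.5) without a filter (−1.59, adjusted p = 0.0777). The value for Pax7 turned to 2.06 with limma on log2(TPM + 0.5), where near-zero levels weigh less, and it lost its call without H replicate 2, M replicate 1 or VTA replicate 2. That of En1 was −1.29 without H replicate 2 and −0.49 with limma. Without NTS replicate 1 the difference for Otx2, −1.44 and not called, became −3.81 (edgeR adjusted p = 9.73e-06). For En2 it went from −0.57 to −1.01 without H replicate 1, which was then called.

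M against H asked how the factors differ between the embryonic divisions. With a spread shared by all 70 libraries, 6 factors were called higher in M (Tal1, Gata2, Gata3, Pax7, En1 and En2) and 1 lower (Lmx1b), where 2.57% of genes were called higher and 6.65% lower. With the spread of the M and H libraries alone, 0 of 10 factors and 4 of 16017 genes were called, so these calls rest on the assumption that M and H vary like the other groups. The H libraries varied more than most. The SD of En1 in H was 15.4 TPM around a mean of 15.7, and that of Pax7 was 7.21 around 6.53. In 7 factors both M libraries lay above all 3 H libraries, a pattern found in 26.4% of genes. The largest differences were 2.39 for Tal1 (SE 0.39, edgeR adjusted p = 2.1e-05) and 2.24 for Gata3 (SE 0.40, edgeR adjusted p = 4.01e-05). Pax3 was not called (−0.41, SE 0.23, edgeR adjusted p = 0.163). Gata2 lost its call without H replicate 3, and Pax7 without H replicate 1 or M replicate 2. Lmx1b lost its call without H replicate 2 or M replicate 1, and its value became −1.76 without M replicate 2. Without H replicate 2 the values were 3.21 for Pax7, 2.76 for En1 and 2.67 for En2, against 1.73, 1.64 and 1.68 with it.

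Against embryonic hypothalamus of the same age, all 10 factors were called higher in M and H, where 1.83% of genes were called higher and 1.72% lower. Gata3, Tfap2b, Pax3 and En2 had no overlap, as did 2.38% of genes. In THy-PHy, En1 was at 1.01, 1.10 and 0.618 TPM, En2 at 0.642, 0.172 and 0.169, and Pax3 at 0.584, 0.177 and 0.425. The log2 fold changes ran from 1.36 for Gata2 and 1.38 for Lmx1b to 6.74 for En2 (SE 0.47, edgeR adjusted p = 2.93e-17). With the spread of the 3 embryonic groups alone, 5 of 10 were called. Lmx1b lost its call without M replicate 2 or THy-PHy replicate 3, and Otx2 without THy-PHy replicate 3.

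Several factors also differed between the adult regions. VTA against PB, NTS and DVC gave 7 factors higher and 2 lower, where 3.57% of genes were called higher and 1.79% lower. En1 had all 3 VTA libraries above all 10 of the hindbrain nuclei, as did 0.760% of genes (log2 fold change 4.05, SE 0.26, edgeR adjusted p = 2.71e-20). Tfap2b was the reverse, as were 6.99% of genes (−2.65, SE 0.27, edgeR adjusted p = 3.93e-11). Gata3 (2.87), En2 (2.25), Tal1 (1.96) and Lmx1b (1.52) were also higher in VTA. That of Lmx1b was 0.98 with limma on log2(TPM + 0.5), and none of the 3 forms of limma called it. Otx2 was higher by 2.69 and, without NTS replicate 1, by 5.06, and it was not called with equal weight for each library (1.60, edgeR adjusted p = 0.0622) or with the spread of these groups alone (edgeR adjusted p = 0.116). The lower call of Pax3 (−1.08) was lost without any one of VTA replicates 1 and 3 or DVC replicate 3 and was −2.50 without VTA replicate 2. Pax7, called higher at 4.70, was at 0.222 to 3.92 TPM in VTA and 2.63 to 5.24 in PB, so that VTA was higher than NTS and DVC but not than PB. Its value was 0.63 with limma on log2(TPM + 0.5) and 0.81 with equal weight for each library, both not called.

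Within the hindbrain nuclei, NTS and DVC against PB gave 6 factors lower (Tal1, Gata3, Lmx1b, Pax7, En1 and En2) and none higher, where 0.906% of genes were called higher and 1.56% lower. The same 6 had all 7 NTS and DVC libraries below all 3 of PB, as did 10.8% of genes. The log2 fold changes were −2.28 for Tal1, −2.68 for Gata3, −2.91 for En2 and −3.62 for En1 (SE 0.31 to 0.36). The call of Lmx1b (−1.17) was lost without PB replicate 2 or 3. PB also held the serotonin genes, with Tph2 at 79.8, 8.69 and 31.8 TPM, and VTA held Tph2 at 1.00, 45.1 and 11.3.

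PB, NTS and DVC against the cerebellum gave 3 factors higher (Tal1, Gata3 and Lmx1b) and 3 lower (Pax3, En2 and Otx2), where 9.12% of genes were called higher and 6.85% lower. Pax3 was the one factor without overlap, lower in all 10 libraries, as were 2.01% of genes. The log2 fold changes were −4.29 for En2 (SE 0.21, edgeR adjusted p = 7.63e-26), −1.97 for Pax3 (SE 0.14, edgeR adjusted p = 1.78e-21) and 2.70 for Lmx1b (SE 0.25, edgeR adjusted p = 2.61e-14). Tal1 was called at 1.45 and fell to 0.9956, under the limit of the call, with limma on log2(TPM + 0.5). Otx2 was lower by −2.95, or −5.32 without NTS replicate 1. En1 was not called (−0.04) until FL was left out of the cerebellum (−1.16, edgeR adjusted p = 6.6e-06).

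CBN against the 4 lobules gave 3 factors higher (Gata3, Lmx1b and Otx2) and 2 lower (Tfap2b and En2), where 11.0% of genes were called higher and 5.80% lower. Tfap2b and En2 had all 3 CBN libraries below all 15 lobule libraries, as did 17.7% of genes (−1.38, SE 0.21, edgeR adjusted p = 3.18e-07 and −2.11, SE 0.29, edgeR adjusted p = 9.21e-09). The 3 higher calls were weaker, and for each of these factors CBN did not have the highest mean. Gata3 had means of 1.33 TPM in CBN and 3.48 in CENT2, and Otx2 of 25.4 in CBN and 47.8 in UVU. Lmx1b had means of 2.13 TPM in CBN, 2.88 in FL and 2.42 in CENT2. The remaining lobules had means below CBN for each gene. Gata3 was called at 1.42 (SE 0.54, edgeR adjusted p = 0.0226) with levels of 1.06 to 1.52 TPM in CBN, and it lost its call without CBN replicate 2. Otx2 was called at 1.29, and at 0.53 without CBN replicate 1, the library with the most choroid plexus RNA, it was not. Lmx1b was called at 1.79 and not with equal weight for each library (0.86). The difference for En1, −0.69 and not called, was −2.22 without FL (edgeR adjusted p = 2.39e-07). Tal1 (0.97, not called) was called at 1.20 without CENT2 replicate 1.

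Genes that act beside these factors were taken from 5 lists made by name. Of all genes tested, 19% were called higher in M and H than in the adult groups and 18.8% lower. In M and H against the adult groups, 8 of 12 genes of the isthmic organiser, the signalling centre at the midbrain-hindbrain junction, were called higher and 1 lower, with a median log2 fold change of 3.47 (3.41 with genes that had no count in some group set to a floor of 3 counts there). Wnt1 was at 1.64 to 5.66 TPM in M and H and at most 0.109 in the adult groups. Otx1 was at 56.6 TPM on average in M and 7.55 in H. Pax2 was higher by 1.35 and Spry4, an inhibitor of FGF signalling, lower by −1.56. Of 17 GABAergic partners of Tal1 and the Gata genes, 11 were called higher and 2 lower (median 1.57, 1.57 with the floor). Helt, a repressor needed for midbrain GABAergic neurons, was at 15.7 TPM in M and 1.35 in H. The GABA synthesis and vesicle genes Gad1 (−2.14) and Slc32a1 (−1.82) were the 2 lower. In M against H, where 2.57% of all genes were called higher and 6.65% lower, 10 of the 17 were called higher and none lower, with the spread shared by all libraries. With the spread of M and H alone only 4 of 16017 genes were called.

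Of 13 dorsal hindbrain and cerebellar fate genes, 11 were called higher and none lower (median 3.27, 3.27 with the floor). Atoh1, the proneural gene of granule cell precursors, was at 16.5 TPM in H and 1.59 in M. Pou4f1 was higher by 5.09, Msx1 by 2.10 and Barhl2 by 1.69. In M against H, 3 of the 13 were called higher and 7 lower, beside 2.57% and 6.65% of all genes and with the same reliance on the shared spread. Of 12 genes of dopamine and serotonin neurons, 5 were called higher and 1 lower (median 1.05, 1.40 with the floor) in M and H against the adult groups. The shares of all genes called there were 19% higher and 18.8% lower. Foxa2 and Foxa1, forkhead factors of the floor plate, were at 16.1 and 10.5 TPM in M and 0.297 and 0.0686 in H. Their means in adult VTA were 13.8 and 16.7 TPM. Foxa2 had no count in PB, DVC, CBN, CUL4-5 and FL, and Foxa1 none in CBN, so the sizes of these calls depend on how near-zero groups are treated. Nr4a2 was called higher by 1.05, with means of 30.3 TPM in M, 23.1 in H and 41.9 in VTA. Ddc, which makes dopamine and serotonin from their precursors, was lower by −1.35. M against VTA gave 0 of these 12 higher and 6 lower, beside 16.9% and 19.9% of all genes. VTA against PB, NTS and DVC gave 11 higher, beside 3.57% of all genes. Of 18 paralogs of the factors that were tested, 14 were called higher and none lower (median 3.34, 3.21 with the floor). Tal2, which acts with Tal1 in the midbrain, was higher by 7.32, and Tfap2d was at 31.1 TPM in M and 5.11 in H. The smallest calls among the paralogs were Crx (1.30) and Pax2 (1.35).

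The genes most like each factor over the 24 groups were found by Pearson's r of log2(mean TPM + 1) among 19820 genes, given as a description because groups share tissue and depth. Tal1 was nearest to 9230102O04Rik (0.966), Pax5 (0.950) and 4930412O13Rik (0.939), and Gata3 to Pou4f1 (0.921), 9230102O04Rik and Pax5 (both 0.911). Pax7 was nearest to 9230102O04Rik (0.938), Tal1 itself (0.937) and 4930412O13Rik (0.907). Its paralog Pax3 was instead paired with Tfap2b (0.949), Tfap2a (0.947) and Skor2 (0.943). Tfap2b was nearest to Pax3 (0.949), Mab21l1 (0.940) and Tfap2a (0.923). En2 was nearest to Cnpy1 (0.929), Aqp6 (0.926) and Tll1 (0.873), all with their highest mean in lobules, and En1 to Pax5 (0.810), En2 (0.772) and Tfap2b (0.771). Gata2 was nearest to Irx1 (0.865) and Irx5 (0.831), Lmx1b to Ebf3 (0.846), Irx6 (0.83) and Nkx6-1 (0.826), and Otx2 to Ldlrad3 (0.860), Tdrd3 (0.834) and Mmrn2 (0.827).

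In the adult forebrain and hypothalamus the factors differed in how far they were present. Gata2 had means of 3.33 TPM in the entorhinal area (ENT) to 6.96 in the arcuate nucleus (ARH), and Tal1 of 0.524 in the ventromedial hypothalamus (VMH) to 1.95 in ENT. Lmx1b had a mean of 3.19 TPM in ARH, besides DMH and LHA given above. En1 and Pax3 were at or under 0.275 and 0.164 TPM in every adult forebrain and hypothalamic library. DMH held Pax7 at 2.17 to 2.82 TPM in its 4 libraries and Gata3 at 1.23 to 2.80, the latter of which overlapped with PVH (0.491 and 3.50). These PVH values rest on 14 and 6 estimated counts, and those of DMH on 20 to 37, so the counts did not overlap. Otx2 was at 6.19 to 9.75 TPM in DMH and 8.29 and 11.5 in PVH, near those of VTA. In mESC, Gata3 was at 4.64 and 5.07 TPM in clone B6-1 and 2.44 and 2.48 in B6-2, and Otx2 at 2.99 and 4.88 and at 2.75 and 3.51.

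Transcript-level estimates bear on which of the starts shown above was used, with the limit that short single reads seldom tell transcripts apart. Of the TPM assigned to Otx2, transcripts from the downstream start took a mean of 53.5% in M (51.5% and 55.5%), 40.4% in H (24.9% to 49.2%) and 49.5% to 61.0% in UVU. Those from the upstream starts took 34.7% and 40.3% in M, 47.5% to 67.4% in H and 28.1% to 39.0% in UVU. The ranges of M and H did not overlap for either share. For Tal1 the start shown took 89.0% in M (85.3% and 92.6%), 95.4% in H, 92.9% in VTA and 86.8% in PB, which overlapped. For Gata2 it took 64.8% in M (59.7% and 70.0%), 49.9% in H (41.6% to 60.2%), 43.2% in VTA (32.7% to 55.8%) and 69.6% in PB (52.4% to 89.6%). M overlapped with H and PB but not with VTA.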

How the data were processed

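The authors isolated RNA from pooled punches, prepared strand-specific mRNA libraries and sequenced single reads. Per the labels and the study's methods, reads were processed with CASAVA 1.8.2 and assigned with kallisto to GRCm38 transcripts. The deposited files hold estimated counts and TPM per transcript for each library, and a table of gene-level TPM that the authors made by summing transcripts. Expected counts were summed per gene and rounded to whole numbers. Of 109282 transcripts, 107987 (98.8%) were matched to a GENCODE gene, and 0.42% to 0.77% of the counts of a library were not.

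Groups were taken from the labels. Libraries of different regions came in part from the same mice, so p-values measure the spread between pools. The 19980 genes left by edgeR's filter on low counts were tested with the quasi-likelihood test of edgeR 4.0.16 in R 4.3.3 (TMM scaling, 1 term per group, all 70 libraries, Benjamini-Hochberg adjustment over all genes), in 10 comparisons. The share of genes whose groups do not overlap is over 19351 genes by TPM. limma 3.58.1 on log2(TPM + 0.5) and DESeq2 1.42.0 were among the alternatives. The genes and lists were chosen with earlier results of these data known. Named genes are the 10 factors, the 3 genes nearest to each by r (1 of those of Gata2 is not reported here), and up to 4 called genes of each list, those with the 2 highest and 2 lowest log2 fold changes. Genes named to check tissue were chosen after their values were seen. Libraries of one number were not treated as pairs.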

Additional observations from a re-analysis of the deposited data

Results flagged for a closer look

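Otx2 in NTS was far from the rest of its group in library 1, at 27.3 TPM against 0, 0.610 and 0 in libraries 2 to 4. The same library held the 7 choroid plexus markers at a sum of 10779 TPM against 7.04 to 14.3 in the others. Of 50 sets of 4 libraries tested for such a gap over the 10 factors, this was the 1 that passed at 1 TPM or more, and chance passes about 1 in 20.

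For 4 factors the difference between embryo and adult was not the same in midbrain and hindbrain by the edgeR test of the difference itself. Tfap2b had log2 fold changes of 6.70 for M over VTA and 3.22 for H over PB, NTS and DVC, a difference of 3.48. Lmx1b had −0.35 and 2.32, a difference of −2.67. En1 had −0.06 and 2.36, a difference of −2.41. Pax7 had 3.60 and 6.57, a difference of −2.97, of which the second rests on NTS and DVC libraries with 1 and 2 counts in all. The adult midbrain is represented by VTA alone. Alternatives that did not leave out 1 library at a time gave 40 values for these 4 factors. Of these, 8 lost the call and 3 turned, and the factors affected were En1, Lmx1b and Pax7.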

How the results depend on the processing

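Of the 100 combinations of factor and comparison, 75 were called. Under 51 alternatives these gave 1994 values, of which 1901 kept direction and call, 89 lost the call and 4 turned. The turned values were En2 in M and H against the adult groups with equal weight for each library (−0.0808), and the stage difference of Pax7 with limma on log2(TPM + 0.5) (2.06, also 2.06 without a filter on low values) and on log2(TPM + 0.1) (1.47). Leaving out the 3 libraries that stood apart, and edgeR with estimateDisp, were chosen after seeing the data.

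With only the groups compared in the fit, called factors fell to 0 for M against H (4 genes), 5 for M and H against THy-PHy (228 genes) and 2 for the stage difference, and VTA against PB, NTS and DVC gave 684 genes, against 1071. CBN against the lobules gave 3 called factors, against 5, under all 3 forms of limma and with equal weight for each library. Without the libraries that stood apart, genes called were 928 for M against H (1843 with them), 455 for VTA against PB, NTS and DVC and 974 for the stage difference (3331 with them). With limma, genes called were 6146, 6404 and 5934 for the stage difference, 1860 for VTA against PB, NTS and DVC on log2(TPM + 0.1), and 326 and 308 for NTS and DVC against PB on log2(TPM + 0.5) with and without a filter, against 492.

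Leaving out 1 library at a time gave these ranges of called factors and genes: 9 to 10 and 7229 to 7668 for M and H against the adult groups, 8 to 8 and 6853 to 7452 for M against VTA, 9 to 10 and 8106 to 8945 for H against PB, NTS and DVC, 6 to 7 and 717 (without H replicate 1) to 2772 (without H replicate 3) for M against H. They were 8 to 10 and 591 to 812 for M and H against THy-PHy, 6 to 6 and 3127 to 3279 for the hindbrain nuclei against the cerebellum, 8 to 9 and 418 (without VTA replicate 1) to 1607 (without VTA replicate 2) for VTA against the hindbrain nuclei. They were 4 to 6 and 3045 to 3470 for CBN against the lobules, 5 to 6 and 390 to 520 for NTS and DVC against PB, and 4 to 5 and 1750 (without VTA replicate 1) to 4454 for the stage difference, with 2160 without H replicate 1.

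The TPM scale moved the median log2 fold change of all genes by 0.46 for M against VTA, 0.18 for M against H, −0.36 for VTA against the hindbrain nuclei, −0.11 for CBN against the lobules and 0.55 for the stage difference. With it the genes called higher and lower went from 3379 and 3976 to 5928 and 1959 for M against VTA, from 514 and 1329 to 1512 and 639 for M against H, and from 714 and 357 to 196 and 969 for VTA against the hindbrain nuclei. They went from 2189 and 1159 to 1016 and 1303 for CBN against the lobules, and from 1256 and 2075 to 5401 and 745 for the stage difference. With equal weight for each library they went from 366 and 343 to 504 and 284 for M and H against THy-PHy.

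For the pairing, 29 of 193 pairs of libraries with one number had a correlation of deviations above 0.1 (−0.431 to 0.425, median 0.0145), as did 35 of 502 pairs with different numbers (−0.515 to 0.545, median −0.00484). The share above 0.1 was larger for pairs with one number, although most of these pairs did not exceed it. The labels do not say that libraries with one number share mice or a batch, so the numbers were not treated as pairs. For the same reason this check cannot show which libraries share mice. With the replicate block, the called factors remained 10 for M and H against the adult groups, 8 for M against VTA and 7 for M against H, and no call of a factor changed in any comparison. The block stands for the number alone, so it cannot show how the calls would hold with shared mice or batches accounted for. Pax7 had 1 estimated count in NTS and 2 in DVC, so counting error is large there.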
